A study of Mus musculus with 6 samples.

Results

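Autophagy delivers cytoplasm, organelles and protein aggregates to the lysosome inside a membrane vesicle, the autophagosome. A kinase complex starts the process, a lipid kinase complex marks the membrane on which the vesicle forms, and 2 conjugation reactions attach small ubiquitin-like proteins of the ATG8 family to that membrane. Cargo receptors bind both an ATG8 protein and the cargo. Because ferritin is degraded in this way, autophagy can release iron, and iron drives the lipid peroxidation of ferroptosis.

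The transcripts of 40 genes of this machinery were followed in immortalized mouse fibroblasts (MF). They were chosen by symbol, as the initiation and nucleation complexes, the proteins that supply membrane, the conjugation system, the ATG8 proteins and the cargo receptors. Of the 40, 39 were listed by symbol in a table of 19078 genes, and *Atg101* was listed under the older symbol *9430023L20Rik*. RNAseq covered 6 poly(A)-selected libraries, of which 3 came from *Ms4a15* OE cells and 3 from controls. *Ms4a15* OE cells are a pool in which a CRISPR activation system with a guide for *Ms4a15* raises its transcription. Apart from the antibiotic selection of cell pools that the methods describe, no drug treatment is given for either group. The labels describe control cells as wild type, whereas the methods describe cells infected with empty lentivirus. According to the methods, the parental line of both is an embryonic fibroblast line with a conditional *Gpx4* allele and Cre-ERt2, so the line serves as a model of cultured fibroblasts and not of a tissue. Whether the 3 libraries of a group came from separate cultures is not stated in the sources used here.

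The value used for each gene is the authors' mean normalized count, taken over all 6 libraries together. It describes both cell populations at once. A comparison of *Ms4a15* OE with control was not made. The value of a gene in 1 library was not analysed here, so no spread between replicates can be given for the levels or for the order of any genes. *Ms4a15* itself had a mean of 638 normalized counts, which does not check the labels because it is pooled. The 6 commonest of the lowest means, from 0.147 to 0.188, were each taken as 1 read in a single library. Here a read is 1 unit of the count, which in these paired-end libraries may be a read pair. On this assumption the lowest member by mean, *Map1lc3a*, rested on 737 to 946 reads. At 737 reads, the exact Poisson 95% interval runs from 7.09% below to 7.49% above the value, and it covers counting error only. The level of a gene is given here as the mean normalized count per kb of its merged exons, so that genes of different length can be set side by side. These lengths come from another annotation than the one used for counting, so levels and ratios are approximate where the annotations differ. A gene model was found for 16214 genes, or 85% of the table, and percentiles refer to these genes unless another reference is named.

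The labelled cell type was checked against markers. The 10 fibroblast markers had levels per kb from 31.7 (*Pdgfra*) to 52501 (*Vim*, the intermediate filament vimentin), with a median of 6016. The 7 epithelial markers lay between 0.038 and 5.56, and the 4 endothelial markers between 0.23 and 26.7. Among the 5 myeloid markers found, the median was 2.71 and the highest was *Lyz2*, a lysozyme, at 405. *Cd68* followed at 131, the 47.9th percentile, and both stood above the fibroblast marker *Pdgfra*.

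All 40 autophagy genes had counts in the pooled libraries of MF cells, with means from 139 to 20831 normalized counts. Their levels spanned a 93-fold range, from 79.3 per kb for *Atg16l2* to 7379 per kb for *Sqstm1*. Per kb of coding sequence these ends were taken by *Atg2a* (201 per kb) and *Gabarap* (19774 per kb). The median member stood at 427 per kb, compared with 156 per kb for the median gene of the table. At the median, a member was thus at the 65.9th percentile. Above the median gene were 32 of 40 members (80%, exact Clopper-Pearson 95% interval from 64.4% to 90.9%, which treats the members as independent although they are not a sample). Above the upper quartile of the table, 702 per kb, were 12 members, and none was below the lower quartile, 2.76 per kb. This position depended on the genes at the bottom of the table. Among the 11747 genes with a gene model and a mean of at least 10 normalized counts, where the median gene stood at 376 per kb, 21 of 40 members (52.5%) were above the median gene and the median percentile was 52.9. The autophagy genes therefore sat near the middle of the genes past this minimum, with a few members far above it. Of the 5 ATG8 genes, 4 were above that median gene and of the 8 cargo receptors 7, compared with 1 of the 5 initiation genes and 4 of the 11 conjugation genes. *Sqstm1* and *Gabarap* together held 37.2% of the summed level of all 40 members.

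**Figure D1:**
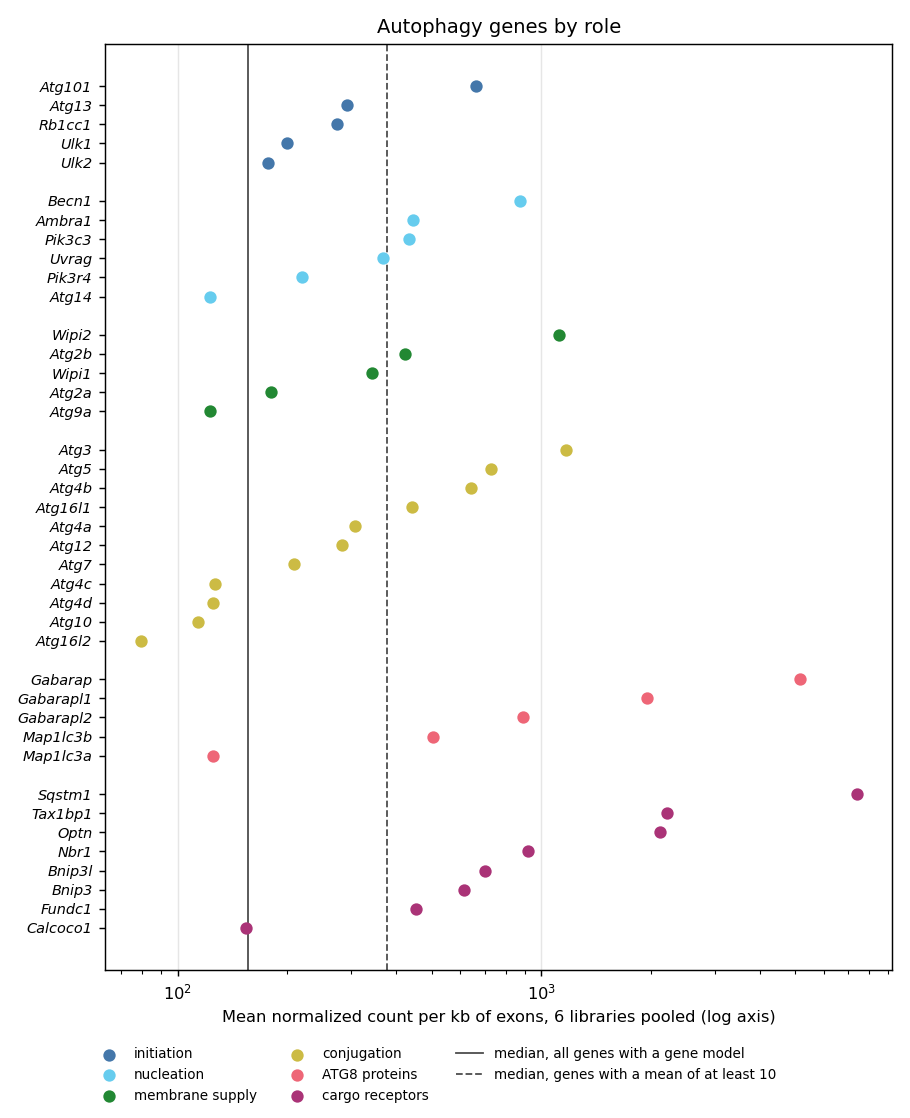
Mean normalized count per kb of exons (log axis) for the 40 autophagy genes, 1 point per gene, pooled over 6 libraries and grouped by role. The solid line marks the median of all genes with a gene model (156 per kb) and the dashed line that of genes with a mean of at least 10 (376 per kb); no error bars are drawn because single libraries were not analysed. *Sqstm1* and *Gabarap* stand at the far right, and *Atg16l2* at the far left.

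The initiation complex joins a ULK kinase to the scaffold FIP200, encoded by *Rb1cc1*, and to ATG13 and ATG101. Its 5 genes had levels from 178 to 663 per kb, the narrowest range of the roles at 3.73-fold. *Ulk1* and *Ulk2*, which encode related kinases, stood at 200 and 178 per kb. Per kb of coding sequence, the pair had a ratio of 1.00. *Rb1cc1* was at 274 per kb and *Atg13* at 293 per kb. *Atg101*, whose product stabilizes ATG13, was the highest at 663 per kb, 2.42 times *Rb1cc1*. Without length scaling this order was turned around, since the mean of *Atg101* was 842 normalized counts on 1270 bases of exon and that of *Rb1cc1* was 2083 on 7607 bases.

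The nucleation complex makes phosphatidylinositol 3-phosphate through the kinase VPS34, encoded by *Pik3c3*. *Pik3c3* stood at 432 per kb and *Pik3r4*, the gene of its regulatory subunit, at 220 per kb. *Becn1*, which encodes the Beclin 1 scaffold, was the highest of the 6 genes at 876 per kb. *Atg14* and *Uvrag* encode alternative subunits, ATG14 directing the complex to the forming autophagosome and UVRAG to later endosomal steps. *Uvrag* was at 367 per kb and *Atg14* at 123 per kb, a ratio of 2.99 that was 2.91 per kb of coding sequence. *Ambra1*, whose product regulates Beclin 1, was at 443 per kb. Of the exonic bases of *Becn1*, 55.1% overlapped exons of *Cntd1* on the opposite strand. The labels give a strand-specific kit, but the strand setting of the counting is not stated. Whether reads of the 2 genes were told apart there is therefore not known. The level of *Becn1* is uncertain to that extent. *Cntd1* was listed with a mean of 8.72 normalized counts, which does not show how reads in the overlap were counted.

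Membrane is supplied to the growing vesicle by the scramblase ATG9A and the lipid transfer proteins ATG2A and ATG2B, at sites recognized by WIPI proteins. *Wipi2*, whose product recruits the conjugation machinery, stood at 1122 per kb. That was 3.28 times *Wipi1*, at 342 per kb. *Atg2b* was at 423 per kb and its paralog *Atg2a* at 181 per kb, a ratio of 2.33. *Atg9a* was the lowest of the 5 genes at 122 per kb of exons, whereas per kb of coding sequence *Atg2a* was. A transcript of another gene on the same strand overlapped 41.8% of the exonic bases of *Atg9a*, so the level of *Atg9a* is uncertain.

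The conjugation system contains an activating enzyme (ATG7), carrier enzymes (ATG3 and ATG10), the ATG12-ATG5-ATG16L1 ligase and the ATG4 proteases, which process ATG8 proteins. *Atg3*, whose product passes ATG8 proteins to lipid, was the highest of its 11 genes at 1174 per kb. *Atg10*, which encodes the carrier for ATG12, was 10.3 times lower at 114 per kb, and *Atg7* was at 209 per kb. Of the ligase genes, *Atg5* stood at 728 per kb, *Atg16l1* at 441 per kb and *Atg12* at 282 per kb. The order of *Atg5* and *Atg12* was reversed per kb of coding sequence, where *Atg12* took first place in the conjugation system. *Atg16l2*, the paralog of *Atg16l1*, was the lowest of all 40 members at 79.3 per kb of exons and 5.56 times below *Atg16l1*. Per kb of coding sequence that ratio was 2.73. Of the 4 protease genes, *Atg4b* was the highest at 641 per kb. *Atg4a* followed at 308 per kb, and *Atg4c* and *Atg4d* stood at 126 and 125 per kb. Exons of *Kri1* on the opposite strand, a gene with a mean of 2948 normalized counts, overlapped 23.6% of the exonic bases of *Atg4d*. For *Atg4a*, 96% of the longest transcript matched another gene, listed in the annotation as *Atg4a-ps*, at 98% identity or more over at least 100 bases. The level of *Atg4a* is therefore uncertain.

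ATG8 proteins are attached to the autophagosome membrane and form 2 subfamilies, GABARAP and LC3. Their 5 genes spanned a 41.2-fold range. *Gabarap* (chromosome 11, 69991143 to 69994951 on GRCm38, forward strand) had a mean of 6941 normalized counts and a level of 5137 per kb, the 96.9th percentile. *Gabarapl1* (chromosome 6, 129533160 to 129542346, forward strand) had a mean of 3553 and a level of 1952 per kb. *Gabarapl2* (chromosome 8, 111940703 to 111953612, forward strand) had a mean of 1498 and a level of 893 per kb. The members of the GABARAP subfamily thus occupied the first 3 places per kb of exons, and *Gabarap* alone held 59.6% of the summed ATG8 level. *Map1lc3b* (chromosome 8, 121590361 to 121598760, forward strand), which encodes the usual marker of autophagosomes LC3B, had a mean of 2617 and a level of 505 per kb. *Map1lc3a* (chromosome 2, 155276297 to 155278073, forward strand), the gene of LC3A, was the lowest at a mean of 139 and 125 per kb. The place of *Map1lc3b* rested on its length. Its merged exons span 5182 bases, of which at most 519 are coding. Per kb of coding sequence it was at 5043 and *Gabarapl2* at 4268, so the pair changed places, while *Gabarap* (19774) and *Gabarapl1* (10122) stayed ahead of both. The ratio of *Gabarap* to *Map1lc3b* was 10.2 per kb of exons and 3.92 per kb of coding sequence. Parts of 2 of these transcripts also occur in other genes, 11% of *Map1lc3b* and 20.9% of *Gabarapl2*. Processed pseudogenes were among the matches of both. Reads from these parts can be lost or split in counting. Over 20.7% of its exonic bases, *Gabarapl1* overlapped a gene on the opposite strand.

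**Figure D2:**
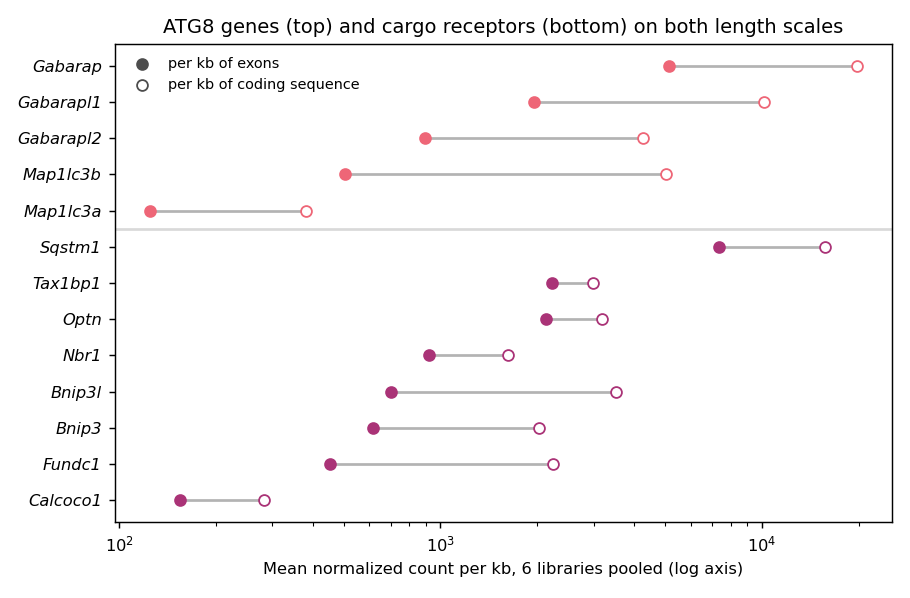
Levels of the 5 ATG8 genes and 8 cargo receptor genes, pooled over 6 libraries, per kb of exons (filled points) and per kb of coding sequence (open points) on a log axis, joined by a line for each gene. *Gabarap* leads the ATG8 genes on both scales and *Sqstm1* the receptors, whereas *Map1lc3b* passes *Gabarapl2* when coding length is used.

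Cargo receptors were the role with the highest summed level per kb of exons, 14574 over 8 genes, compared with 8613 over the 5 ATG8 genes. Per kb of coding sequence the ATG8 genes were ahead, 39589 against 31575. *Sqstm1* encodes the receptor p62, which binds ubiquitin, ATG8 proteins and KEAP1. It lies on chromosome 11 (50199366 to 50210827 on GRCm38, reverse strand) and had a mean of 20831 normalized counts. Its level of 7379 per kb was 47.2 times that of the median gene and held 50.6% of the receptor total. Of its exonic bases, 20.5% overlapped *Mrnip* on the opposite strand. The other receptors for ubiquitinated cargo followed at a distance. *Tax1bp1* stood at 2224 per kb, *Optn*, which encodes optineurin, at 2127 per kb, and *Nbr1*, which encodes a receptor related to p62, at 921 per kb. *Tax1bp1* and *Optn* differed by a ratio of 1.05, which was 0.943 per kb of coding sequence, so their order changed with the length used. *Sqstm1* exceeded *Nbr1* by 8.02 times per kb of exons and 9.68 times per kb of coding sequence. Compared with *Gabarap*, *Sqstm1* was 1.44 times as high per kb of exons and 0.794 times as high per kb of coding sequence.

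*Bnip3l*, *Bnip3* and *Fundc1* encode receptors that sit in the outer mitochondrial membrane. *Bnip3l* was at 703 per kb, *Bnip3* at 615 per kb and *Fundc1* at 452 per kb. Their coding sequences are short, and per kb of coding sequence *Bnip3l* came second to *Sqstm1* among the receptors. For *Bnip3*, 48.8% of the longest transcript had near-identical copies in other genes, and for *Bnip3l* 34.7%, in the pseudogene *Bnip3l-ps*. Cutting the exon length by these shares, with all counts kept, raised *Bnip3* by 1.95 times to 1201 per kb and *Bnip3l* by 1.53 times to 1076 per kb. That turned their order around. The cut treats every read from the copied bases as lost, which was not tested. Because of these copies, the levels of both are uncertain. *Calcoco1*, which encodes a receptor for the endoplasmic reticulum, was the lowest of the receptors at 155 per kb, at the 49.8th percentile.

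Other steps of the pathway were taken from 3 lists to set these levels in place. For fusion with the lysosome, 15 of 15 genes were found and 14 had a gene model. They had a median of 482 per kb, with *Rab7* (2673 per kb), a small GTPase of late endosomes, and *Ykt6* (2478 per kb), a SNARE protein, at the top. *Tecpr1* (36.1 per kb) and *Epg5* (113 per kb), both tethering factors, were at the bottom. Of 22 upstream regulators, 21 were found, with a median of 263 per kb. *Prkaa1*, which encodes a catalytic subunit of the energy sensor AMPK, stood at 2312 per kb, and *Rheb*, an activator of the nutrient-sensing kinase mTOR, at 2270 per kb. *Tfe3*, at 40.4 per kb, and *Foxo3*, at 55.1 per kb, both genes of transcription factors that act on autophagy genes, were the lowest.

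The 16 other selective receptors and their partners reported here had a median of 789 per kb. *Phb2*, an inner mitochondrial membrane protein, was at 10251 per kb and *Fkbp8* at 2238 per kb. *Ccpg1*, which encodes a receptor for the endoplasmic reticulum, stood at 70.1 per kb. *Pink1*, which encodes a kinase of damaged mitochondria, had a mean of 500 normalized counts, or 187 per kb. *Ncoa4*, the receptor that brings ferritin to the autophagosome, was at 541 per kb. The transcripts of the ferritin subunits were higher, with *Fth1* at 40141 per kb and *Ftl1* at 55783 per kb. Copies and exon overlaps were searched only for the autophagy members, not for the ferritin genes or the genes of the comparison lists. *Ncoa4* was picked out after its value was seen.

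**Figure D3:**
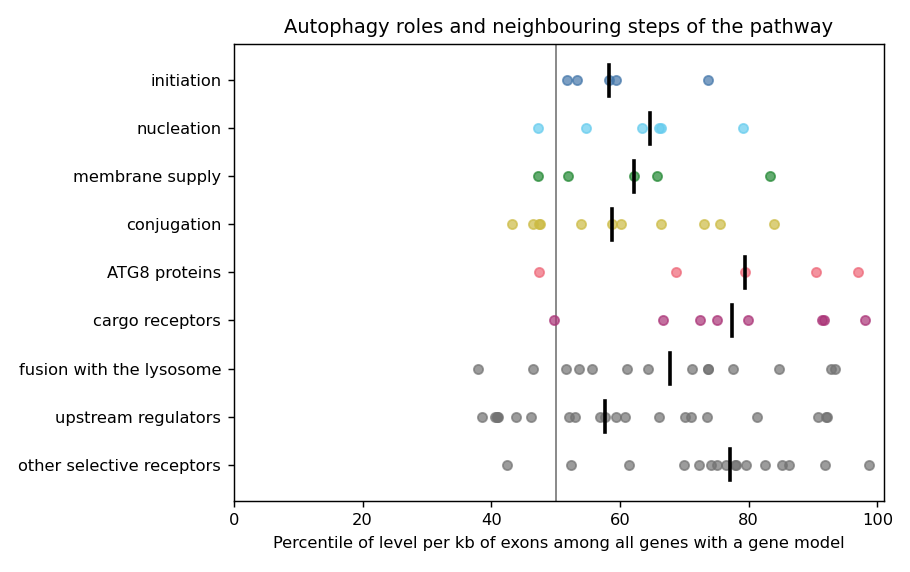
Percentile of each gene's level per kb of exons among the 16214 genes with a gene model, for the 6 roles of the autophagy genes (coloured) and 3 further lists (grey), 1 point per gene with a coding length and a black bar at each list's median. The ATG8 genes (median percentile 79.5) and cargo receptors (77.5) lie to the right of the initiation genes (58.3) and conjugation genes (58.7).

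The start regions of the members were read for motifs that bind factors acting on autophagy and oxidative stress genes. RefSeq windows of GRCm38.p6 from 250 bases before to 50 bases after a transcription start were at hand for 33 of the 40 genes, 37 windows in all. The letters CACGTG form the core of the E-box bound by the TFEB family and by other factors. They occurred in 5 of 37 member windows (13.5%) and in 7.15% of all 32851 windows. The longer form TCACGTGA, which contains it, occurred in 1 member window, that of *Atg3*, and in 0.974% of all windows. The core of the antioxidant response element, searched as TGACNNNGC on both strands, occurred in 4 of 37 member windows (10.8%) and in 12.4% of all windows. A match of letters does not show that a factor binds. Stretches with the E-box core in capitals are shown for the members in which it lies wholly before the start, 5′ to 3′ on the strand of the gene, so that their surroundings can be set beside each other.
Atg3 (chr16:45158739-45158782, forward strand, with the longer form in capitals): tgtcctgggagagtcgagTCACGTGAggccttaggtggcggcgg
Atg5 (chr10:44268307-44268338, forward strand): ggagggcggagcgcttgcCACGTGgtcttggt
Atg7 (chr6:114670946-114670987, forward strand): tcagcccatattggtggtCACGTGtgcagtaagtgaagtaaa
Bnip3 (chr7:138909591-138909632, reverse strand): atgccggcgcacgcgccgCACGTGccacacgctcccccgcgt
The 4 genes had levels of 1174, 728, 209 and 615 per kb in this order. The start used for *Atg7* is an internal one, since GENCODE places the gene at 114643097 to 114860614 on chromosome 6. In *Atg14*, at 123 per kb, the core ran across the start and is not shown. That start, next to base 47568435 of chromosome 14 on the reverse strand, is internal as well. GENCODE places *Atg14* at 47540893 to 47570649. A second E-box core lay 94 bases before the start of *Atg3*, in addition to the one shown.

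The members were spread over 18 chromosomes. Chromosome 11 carried 6 of the 40 (15%, compared with 8.38% of the genes of the table with a gene model), namely *Becn1*, *Gabarap*, *Nbr1*, *Sqstm1*, *Ulk2* and *Wipi1*. Both leading members, *Sqstm1* and *Gabarap*, were among them.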

How the data were processed

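According to the paper's methods, the authors aligned reads with STAR to mm10 with UCSC knownGene, summed them by gene in HTSeq-count and ran DESeq2. The labels name TopHat, Cufflinks, Cuffdiff, HTSeq and DESeq2 without roles, and give a strand-specific kit. The methods name the TruSeq RNA Sample Prep Guide and do not mention strand. The signal used is the mean of normalized counts over all 6 libraries in the authors' deposited table. The table's other columns hold the authors' comparison of *Ms4a15* OE with control (log2 fold change, its standard error, p-value, adjusted p-value and direction) and were not used. Library totals were not used here.

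Means were divided by the merged exon length of GENCODE M21 (GRCm38, the assembly that mm10 names, basic set), matched by symbol or by an older RefSeq symbol. For some members these exons were shorter than the longest transcript of the full set. Examples are *Tax1bp1*, at 3285 against 4249 bases, and *Atg16l1*, at 3178 against 3751 bases. Levels with the longer lengths were not computed. Copies of the members, and of no other genes, were searched with BLAST 2.17.0 over all transcripts of the annotation. Computations used Python 3.11.15, scipy 1.17.1 and matplotlib 3.10.9. Only the interval, percentile and motif functions were tested, on inputs with known answers. Alternatives were coding length (the longest annotated), no length scaling, minimum means of 1 and 10, genes with a coding length, and the members' length cut by the copied share of the longest transcript. All members could be named. In other lists the rule named the 2 highest and 2 lowest genes, and the ferritin genes. Of the list of other selective receptors, 1 gene is not reported here. Members and lists were chosen with earlier results of these data known.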

Additional observations from a re-analysis of the deposited data

How the results depend on the processing

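With merged exon length, 80% of the members were above the median gene and their median percentile was 65.9. The share was 70% with coding length, among the 15492 genes that have one, and 80% with exon length among those genes. It was 67.5% against genes with a mean of at least 1 and 52.5% against genes whose mean was 10 or more. These minimum means remove low genes from the reference. The share was 95% without length scaling, where the reference was all 19078 genes of the table, with or without a gene model. Removal of scaling and the wider reference were not separated, here or for the percentile below. The median percentile was 61.5 with coding length, 70.3 without length scaling, 60.3 and 52.9 with minimum means of 1 and 10, and 64.7 among genes with a coding length. Another alternative, chosen after seeing the data, cut the members' lengths by the share copied in other annotated transcripts, kept all counts and dropped *Atg4a*. It gave 79.5% and 66, and moved *Bnip3* from the 72.4th to the 84.3rd percentile and *Bnip3l* from the 75th to the 82.7th. The lengths of all other genes were left unchanged, so this setting could only raise the level of a remaining member. Of 13 ATG8 and receptor genes, 11 were above the 50th percentile in every setting run, *Map1lc3a* was below it in every one, and *Calcoco1* was not constant.

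No paired analysis was possible because the deposited mean pools the 6 libraries. The planned test of *Ms4a15* OE against control, its other tool and filter, the replicate block and leaving out each replicate need values per library and were not run, and the authors' own comparison in the table was not used. The depth of each gene is bounded only through the inferred value of 1 read.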
